A study of Mus musculus with 6 samples.

Results

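The HES and HEY genes encode basic helix-loop-helix transcriptional repressors of the Hairy and Enhancer of split type. All 9 genes of the family list, 6 HES genes (Hes1, Hes2, Hes3, Hes5, Hes6, Hes7) and 3 HEY genes (Hey1, Hey2, Heyl), were taken by name from the 22180 genes that could be tested, with no filter on dim signals. Each gene was read from the probe set with the highest mean over 6 arrays, a probe set being the group of short probes that an Affymetrix array uses to measure a transcript. Hes5 and Hes7 each had 1 more probe set, so that 11 probe sets were read in all.

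When a Notch receptor is cut, its intracellular domain enters the nucleus, joins the DNA-binding protein RBPJ and a Mastermind coactivator, and switches on a small set of genes of which the HES and HEY repressors are the textbook members. HES and HEY proteins in turn recruit corepressors, which for HES proteins include TLE proteins. These repressors hold down proneural and neuroendocrine genes, and in the developing airway this brake limits how many cells become neuroendocrine. Small cell lung cancer is a neuroendocrine tumor, and Hes6, an unusual member that opposes Hes1 and favors neuronal differentiation, is commonly high in such cells.

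The study compared 3 samples of KP1 cells transfected with activated Notch1 as a Notch1-ICD-ires-GFP construct (N1ICD) with 3 samples given an empty vector, ires-GFP (control). KP1 is a mouse small cell lung cancer cell line from an Rb/p53/p130 triple knockout model, so both groups lack these 3 genes, both carry GFP, and both were sorted for GFP 48 hours after transfection. The promoter of the vector and the species of the Notch1 insert are not given in the sources used here, and all samples come from 1 line. The labels call the samples biological replicates without naming what was repeated, so p-values measure the spread between these samples, which may be technical in part.

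Values are log2 expression after robust multi-array averaging (RMA), and a change is the N1ICD mean minus the control mean. The median over genes lay between 6.14 and 6.24 on the 6 arrays, and values correlated across genes at 0.991 to 0.994 within groups and 0.980 to 0.984 between them. Genes are not independent replicates, so these correlations describe the arrays only. Notch1, the transfected gene, was at 8.07, 7.49 and 7.72 in N1ICD cells, against 6.35, 6.20 and 5.96 in control cells (change 1.59 ± 0.17 SE, limma adjusted p = 0.000889, adjusted p = 0.051 without variance moderation). The 7 measured of 8 neuroendocrine markers were above the array median on all 6 arrays. Among them Chga (change 0.64) and Ncam1 (0.53) rose and Insm1 (-0.89) fell, named after their values were seen, and the log2 of their summed signal was 13.66 to 13.80 in N1ICD arrays, against 13.42 to 13.48 in control arrays. The calls of Chga and Ncam1 were lost without control replicate 2 (limma adjusted p = 0.0638 and 0.0955) and without some of the other arrays. Insm1 kept its call without any 1 array. Without variance moderation Chga, Ncam1 and Insm1 all lost their calls (adjusted p = 0.0917, 0.0981 and 0.101). In the limma fit over all probe sets Chga and Ncam1 lost theirs (adjusted p = 0.0652 and 0.0935), and Insm1 kept its call (adjusted p = 0.0487).

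Of the 9 members, 5 rose and 1 fell in N1ICD cells at a limma adjusted p under 0.05, and 3 did not pass the test. Over all genes tested 7.10% passed, 3.82% as rises and 3.27% as falls (848 and 726 genes, or 730 and 948 with equal array medians). The rises were Hes5, Hey1, Hes1, Hey2 and Heyl, which include all 3 HEY genes, and the fall was Hes6. The groups did not overlap in these 6 genes, as in 26.1% of all genes, and the distance between the nearest arrays of the groups lay between 1.18 and 4.65. For each of the 6 the exact two-sided permutation p was 0.1, the smallest that the 20 assignments of 3 against 3 arrays allow. The median change over the 9 members was 1.92, against -0.02 over all genes, and 0.72 with each probe set chosen on the control arrays alone, a choice that changed only the probe set of Hes5 among the members. In a bulk RNA measurement, fewer cells with a transcript and less of it in each cell cannot be told apart.

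**Figure D1:**
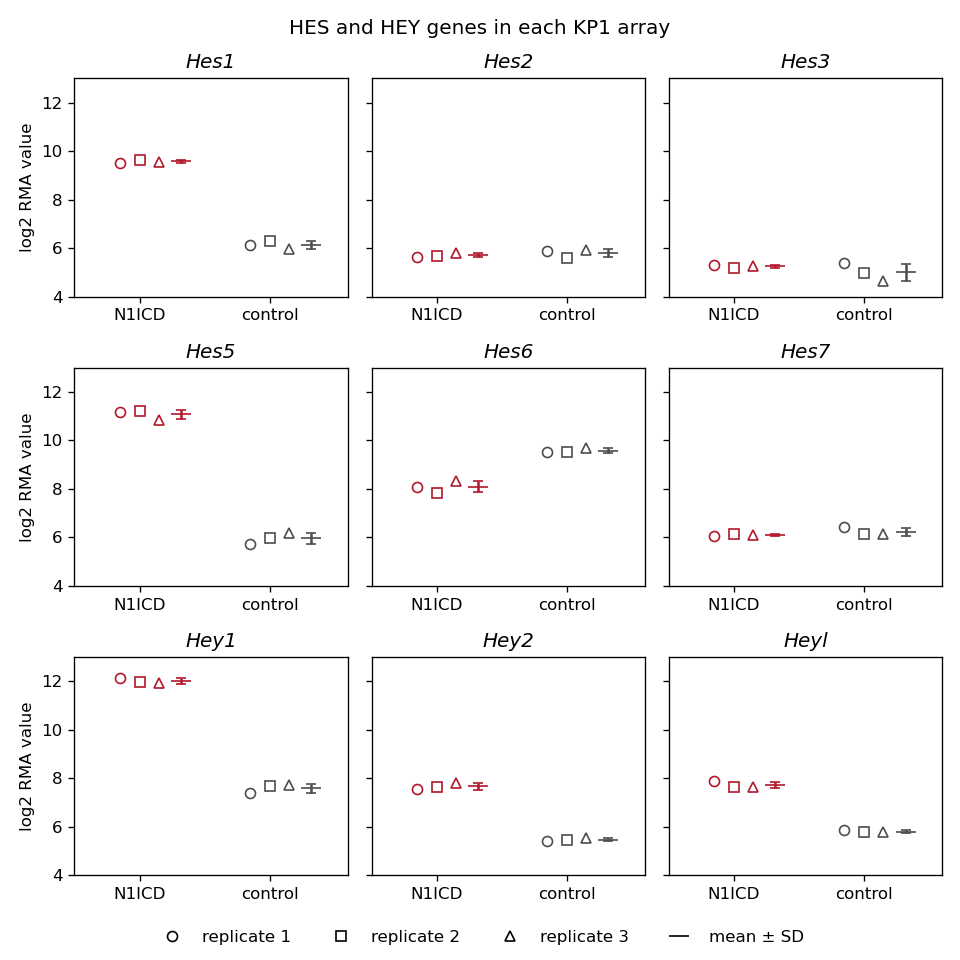
Log2 RMA value (vertical axis) of the 9 genes in each array, with the N1ICD group left of the control group; open symbols are replicates and bars are the mean ± SD of 3 arrays. Hes5, Hey1, Hes1, Hey2 and Heyl are higher in every N1ICD array than in any control array, Hes6 is lower in every N1ICD array, and the groups overlap for Hes2, Hes3 and Hes7.

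Hes5, a Notch-induced repressor that keeps neural progenitors undifferentiated, changed most at its brighter probe set. Its values were 11.16, 11.21 and 10.84 in N1ICD cells, against 5.71, 5.98 and 6.19 in control cells. All N1ICD arrays were above all control arrays, and the nearest were 4.65 apart, against ranges of 0.37 within the N1ICD group and 0.48 within the control group. The difference was 34.5-fold (change 5.11 ± 0.15 SE, 95% interval 4.76 to 5.46, limma adjusted p = 1.13e-06), the 8th largest rise among 22180 genes. The control values fell below the array median in 2 of 3 arrays. RMA compresses such dim signals and background was not measured, so the fold holds for RMA values only.

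The dimmer Hes5 probe set gave a far smaller change. It was at 7.79, 7.41 and 7.13 in N1ICD cells, against 6.78, 6.52 and 6.89 in control cells. The groups did not overlap, but the gap was 0.25 and the change of 0.72 ± 0.19 SE did not pass the test in the fit over all 41345 probe sets (limma adjusted p = 0.152), where 1.95% of probe sets passed. The changes of the 2 probe sets were 4.39 apart, with no overlap of the within-array differences and an exact two-sided permutation p of 0.1, again the smallest possible. The brighter probe set has the higher mean over the 6 arrays because of the N1ICD arrays, since in the control arrays it averaged 5.96 and the other one 6.73, so the change itself decided which was read. With each gene's probe set chosen on the control arrays alone, which altered the choice for 16 of 22180 genes, Hes5 changed by 0.72 and its limma adjusted p was 0.0488. Averaged over both probe sets, Hes5 changed by 2.91 and still passed the test. The sources used here do not give the part of the transcript that either probe set covers.

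**Figure D2:**
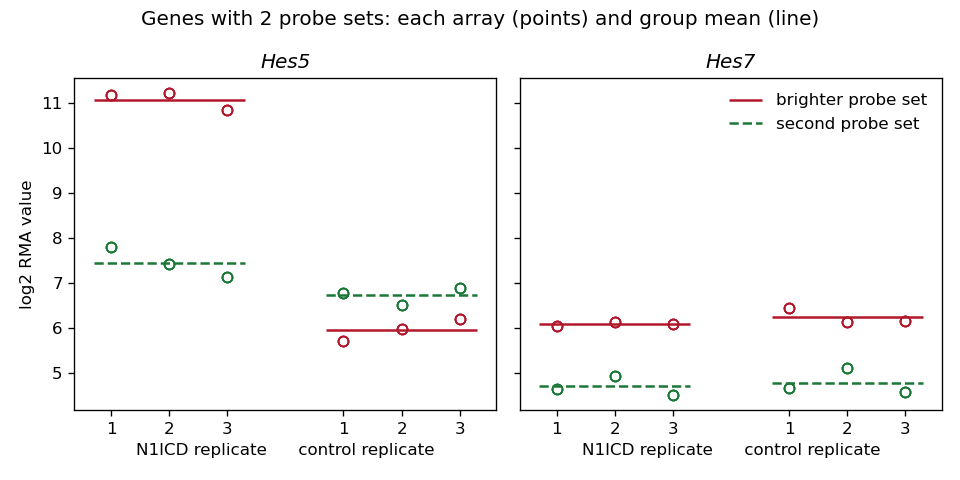
Log2 RMA value (vertical axis) at both probe sets of Hes5 and of Hes7 in each replicate, N1ICD replicates left of control replicates; points are arrays and lines are group means. The Hes5 probe sets change by 5.11 and 0.72 between the groups, and the Hes7 probe sets by -0.15 and -0.08.

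Hes1, the most widely used Notch effector of the family and a repressor of its own gene, was at 9.53, 9.64 and 9.57 in N1ICD cells, against 6.13, 6.28 and 5.95 in control cells. The N1ICD arrays lay within 0.11 of each other, and all were far above the control arrays. The difference was 11.0-fold (change 3.46 ± 0.11 SE, limma adjusted p = 1.40e-06), and 25th in size among the rises. Its control values were below the array median in 2 of 3 arrays.

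The 3 HEY genes, best known from Notch signaling in the heart and blood vessels, all rose. Hey1 was at 12.14, 11.95 and 11.92 in N1ICD cells, against 7.37, 7.68 and 7.70 in control cells, a 21.4-fold difference (change 4.42 ± 0.12 SE, limma adjusted p = 9.55e-07). It was the one riser of the family that lay above the array median in every control array. Hey2 was at 7.55, 7.62 and 7.80 in N1ICD cells, against 5.39, 5.47 and 5.51 in control cells, a 4.60-fold difference (change 2.20 ± 0.10 SE, limma adjusted p = 1.06e-05). Heyl was at 7.87, 7.63 and 7.65 in N1ICD cells, against 5.85, 5.77 and 5.77 in control cells, a 3.78-fold difference (change 1.92 ± 0.10 SE, limma adjusted p = 2.28e-05). Hey2 and Heyl were below the array median in every control array and above it in every N1ICD array.

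Hes6 went the other way. It was at 8.09, 7.85 and 8.32 in N1ICD cells, against 9.50, 9.51 and 9.69 in control cells. The highest N1ICD array was 1.18 below the lowest control array, and all 6 arrays stayed above the array median. Hes6 fell by 1.48 on the log2 scale, which is 2.79-fold (SE 0.14, 95% interval -1.79 to -1.17, limma adjusted p = 0.000429), the 20th largest fall among 22180 genes.

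Hes2, Hes3 and Hes7 did not pass the test, and their groups overlapped. Hes2 was at 5.64, 5.69 and 5.82 in N1ICD cells, against 5.88, 5.61 and 5.91 in control cells (95% interval of the change -0.35 to 0.18, limma adjusted p = 0.757). Hes3, which supports neural stem cells in the embryo, was at 5.32, 5.20 and 5.27 in N1ICD cells, against 5.38, 4.97 and 4.65 in control cells (95% interval -0.14 to 0.66, limma adjusted p = 0.475). The control arrays of Hes3 spread over 0.73, the widest range of any member in either group. Hes7, the oscillator of the somite clock, was at 6.05, 6.14 and 6.09 in N1ICD cells, against 6.43, 6.13 and 6.16 in control cells (95% interval -0.40 to 0.10, limma adjusted p = 0.522). Its dimmer probe set averaged 4.70 in N1ICD cells and 4.78 in control cells (limma adjusted p = 0.901 over all probe sets). Hes2 and Hes3 were below the array median on all 6 arrays, and the brighter Hes7 probe set was below it in all 3 N1ICD arrays and 1 control array.

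**Figure D3:**
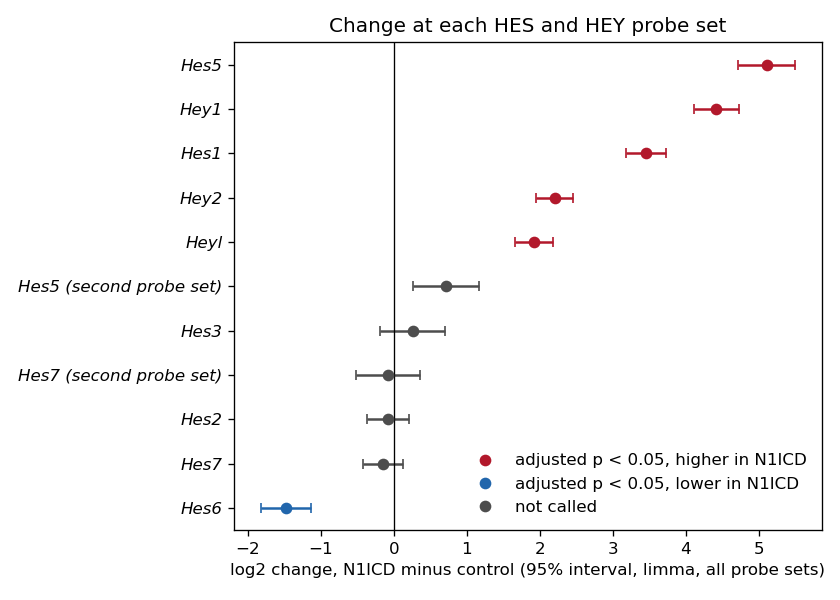
Log2 change, N1ICD minus control (horizontal axis), at each of the 11 HES and HEY probe sets with its 95% interval from the limma fit over all probe sets; red and blue points passed an adjusted p of 0.05 as rises and falls. The changes run from -1.48 for Hes6 to 5.11 for the brighter Hes5 probe set, and the dimmer Hes5 probe set sits at 0.72.

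The members were put in order of their change in these same arrays, and neighbors among the risers were then compared. The sorting itself set the direction of each difference. The change of Hes5 exceeded that of Hey1 by 0.69 ± 0.11 (SE), Hey1 exceeded Hes1 by 0.96 ± 0.18, and Hes1 exceeded Hey2 by 1.25 ± 0.14. In each of these pairs the within-array differences of the groups did not overlap, with an exact two-sided permutation p of 0.1, the smallest possible. Hey2 and Heyl differed by 0.28 ± 0.15, and there the groups overlapped (exact permutation p = 0.3). How far the compression of dim control signals sets this order was not tested. The place of Hes5 also rests on its brighter probe set: at the dimmer one, or with the mean of 2.91, Hes5 would stand below Hey1 and Hes1.

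Within the N1ICD group the members did not share 1 order of arrays. Notch1, Hey1 and Heyl were highest in replicate 1, Hes1 and Hes5 in replicate 2, and Hey2 and Hes6 in replicate 3. Notch1 spread over 0.58 between the N1ICD arrays, Hes6 over 0.47, Hes5 over 0.37, and the other risers over 0.11 to 0.25. With 3 arrays in a group, the relation between the level of Notch1 and that of a member was not tested.

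Promoter sequence was at hand for 4 of the 9 members, Hes5, Hey2, Hes6 and Hes7, from RefSeq on the mouse build GRCm38.p6; Hes1, Hes2, Hes3, Hey1 and Heyl are named only. These 4 cover a large rise, a smaller rise, the fall and a member that did not pass the test, and each is shown as the 250 bases before an annotated start, 5′ to 3′ on the strand of the gene. Capitals mark GTGGGAA, the core letters of the sequence that RBPJ prefers, or its reverse complement TTCCCAC. The windows are Hes5 at chr4:154960673-154960922 (plus strand), Hey2 at chr10:30842784-30843033 (minus strand), Hes7 at chr11:69120203-69120452 (plus strand) and Hes6 at chr1:91414039-91414288 (minus strand).
Hes5: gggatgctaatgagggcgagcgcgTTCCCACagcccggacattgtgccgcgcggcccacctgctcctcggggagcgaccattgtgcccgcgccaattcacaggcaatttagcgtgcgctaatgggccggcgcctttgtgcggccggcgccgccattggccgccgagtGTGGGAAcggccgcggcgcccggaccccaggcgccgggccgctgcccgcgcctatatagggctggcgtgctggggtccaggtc
Hey2: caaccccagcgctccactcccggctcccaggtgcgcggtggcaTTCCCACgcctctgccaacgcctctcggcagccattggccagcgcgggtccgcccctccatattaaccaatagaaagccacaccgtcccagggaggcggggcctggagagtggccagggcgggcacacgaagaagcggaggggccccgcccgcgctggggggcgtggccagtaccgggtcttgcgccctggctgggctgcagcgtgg
Hes7: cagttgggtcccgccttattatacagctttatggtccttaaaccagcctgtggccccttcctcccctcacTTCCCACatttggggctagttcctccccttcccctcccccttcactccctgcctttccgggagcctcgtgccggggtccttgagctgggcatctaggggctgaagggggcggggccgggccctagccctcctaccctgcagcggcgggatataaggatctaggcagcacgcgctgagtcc
Hes6: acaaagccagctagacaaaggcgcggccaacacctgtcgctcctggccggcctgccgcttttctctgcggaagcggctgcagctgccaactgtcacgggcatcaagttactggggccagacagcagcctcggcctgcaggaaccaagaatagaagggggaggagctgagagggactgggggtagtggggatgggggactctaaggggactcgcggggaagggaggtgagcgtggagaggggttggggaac

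The Hes5 window held 2 matches on opposite strands, which began 226 and 83 bases before the start. Of 32851 such windows over 27025 genes, 5.42% held at least 1 match on either strand and 0.161% held 2 or more. Hey2, the smaller riser, had 1 match in the window, beginning 207 bases before the start, and another that spans the start with its first 4 bases at the end of the printed stretch. Hes7 did not pass the test and also had 1 match, 180 bases before its start. Hes6 had none here or in the window of its other annotated start, which means only that these letters are not in these bases. A match describes letters and is not a measured binding site.

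HES proteins bind the N-box, CACNAG, and class C sites, CACGCG, and these motifs were searched on both strands of the same windows; neither overlaps a GTGGGAA match. Hes5 and Hey2 had neither. Hes7 had 1 N-box and 1 class C site, with the class C site beginning 14 bases before its start, and Hes6 had 1 N-box before its other start. Over all windows 36.7% held an N-box and 7.62% a class C site.

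Of the 10 other Notch target genes listed, 4 passed the test as rises and 0 as falls, where 3.82% of all genes rose and 3.27% fell, and the median change was 0.20, against -0.02 over all genes (limma; at an unadjusted p under 0.05, 4 rose and 1 fell). The D-type cyclin Ccnd1 changed by 5.41 ± 0.17 (SE) and the matrix protein Tnc by 5.12 ± 0.16, close to the brighter Hes5 probe set. Nrarp, a feedback inhibitor of Notch complexes, changed by 3.14 ± 0.11, and Sox9, a progenitor factor, by 1.68 ± 0.20. The call of Sox9 was lost without variance moderation (adjusted p = 0.0706). Without N1ICD replicate 1 a fall was added, Dtx1, named after its value was seen (-0.37 with all arrays, adjusted p = 0.228; adjusted p = 0.0414 without that array).

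Genes known as repression targets of HES or HEY proteins went both ways. Of 14 listed, 13 were measured; 3 fell, 1 rose and 9 did not pass the test, with a median change of -0.08, where 3.27% of all genes fell and 3.82% rose. Dll1, a Notch ligand that HES proteins repress in neural progenitors, averaged 6.45 ± 0.40 in N1ICD cells and 8.09 ± 0.10 in control cells (SD, n = 3 each; change -1.63 ± 0.19 SE, limma adjusted p = 0.00159), and the mean over its probe sets changed by -0.95. Lfng, a glycosyltransferase that Hes7 represses in the somite clock, averaged 7.65 ± 0.26 in N1ICD cells and 8.69 ± 0.11 in control cells (change -1.04 ± 0.14 SE, limma adjusted p = 0.00374). The proneural factor Neurod4 averaged 7.50 ± 0.27 in N1ICD cells and 8.53 ± 0.16 in control cells (change -1.04 ± 0.15 SE, limma adjusted p = 0.00538). All 3 falls lost their call without variance moderation, with adjusted p between 0.0645 and 0.0844. Gadd45g, a growth-arrest gene that Hes1 represses in mouse embryonic stem cells, was higher, at 11.40 ± 0.17 in N1ICD cells and 10.25 ± 0.03 in control cells (change 1.15 ± 0.11 SE, limma adjusted p = 0.000574). The proneural factors Neurog3, Neurod1, Atoh1 and Ptf1a and the factor Gata4 were below the array median on all 6 arrays, and none of them passed the test. Low signal did not mark every target without a call. Cdkn1b, Cdkn1c and Gata6, named after their values were seen, were above the median on all 6 arrays, with changes of 0.21, 0.14 and 0.28. Neurog2, named likewise, was below the median on 1 array and changed by -0.0006. None of these passed the test either.

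Most genes that act with the family did not pass the test. Of 9 members of the RBPJ activator complex, Rbpj itself averaged 9.52 ± 0.15 in N1ICD cells and 9.67 ± 0.08 in control cells (SD, n = 3 each; adjusted p = 0.525 in limma), 0 genes rose, and only the Mastermind coactivator Maml3 fell (change -0.65 ± 0.13 SE, limma adjusted p = 0.0232; at an unadjusted p under 0.05, 1 rose and 1 fell). That call was lost without any 1 of control replicates 1, 2 and 3 or N1ICD replicates 2 and 3 (adjusted p up to 0.093). Of 12 listed corepressors 10 were measured; Tle3 rose by 0.63 ± 0.10 (limma adjusted p = 0.0062) and Tle6 fell by 0.51 on the log2 scale (SE 0.10, limma adjusted p = 0.0197). The call of Tle6 was lost without any 1 of control replicates 2 and 3 or N1ICD replicates 2 and 3 (adjusted p up to 0.0834). The other TLE genes, Sin3a, Hdac1, Hdac2 and Sirt1 did not pass. Of 3 other repressors with the same bHLH-Orange build, 0 rose or fell (limma; also 0 at an unadjusted p under 0.05), and the largest change was that of Bhlhe40 (0.44 ± 0.22, adjusted p = 0.318). Beside the 7.10% of all genes called, counts of 1 in 9 and 2 in 10 are not read as a property of these lists.

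**Figure D4:**
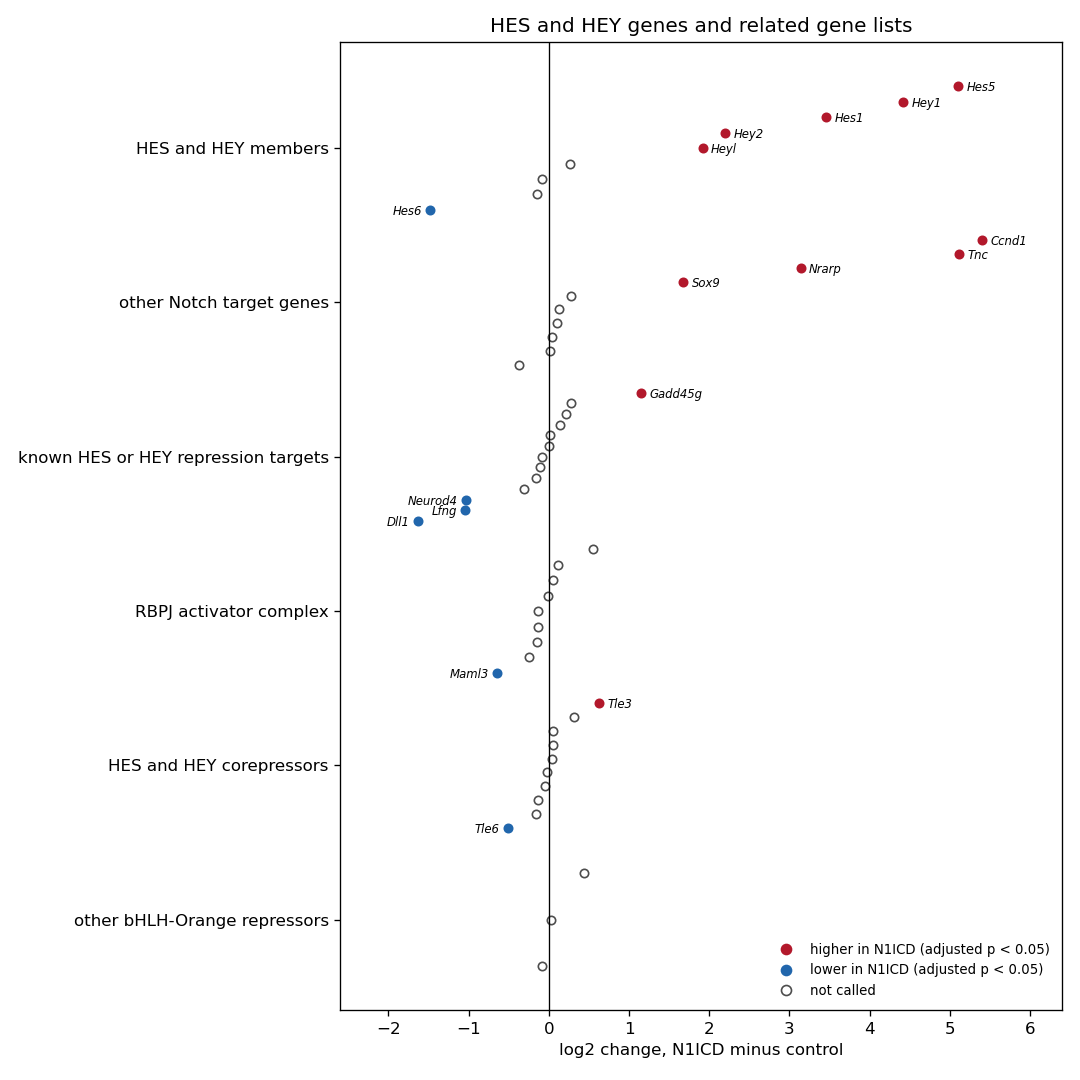
Log2 change, N1ICD minus control (horizontal axis), for each gene of the family and of 5 lists of related genes (rows); filled points passed a limma adjusted p of 0.05 and carry their name. The family and the other Notch targets hold the rises above 1.5, the known repression targets hold 3 falls and 1 rise, and the complex members and corepressors lie between -0.65 and 0.63.

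The genes whose profiles came closest to each member were found by the mean absolute difference, over the 6 arrays, of log2 values minus the control mean of the gene. For Hes5 they were Hhip, a Hedgehog-binding protein (mean difference 0.15), Depp1 (0.19) and Olfml2a (0.22). For Hey1 they were the Wnt antagonist Frzb (0.20), the membrane protein stomatin, Stom (0.21), and the matrix protein Sparc (0.23). Hes1 was matched best by the collagenase Mmp13 (0.09), with Lifr, the receptor of leukemia inhibitory factor (0.16), and the guanylate cyclase subunit Gucy1a1 (0.17) next. Hey2 lay closest to the vasopressin receptor Avpr1a (0.08), the cadherin Cdh6 (0.09) and the ubiquitin ligase Marchf3 (0.10). Heyl lay closest to the atypical cadherin Fat1 (0.06), the glutamate receptor subunit Gria1 (0.08) and the kinase Nuak1 (0.08). For Hes6, the falling member, they were the serotonin receptor subunit Htr3a (0.08), Mctp2 (0.09) and the Notch ligand Dll3 (0.09). A small distance means a change of like size, so it is a description of 6 arrays and carries no test.

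Markers of other cell types were checked because HEY genes are also expressed by blood vessels, and their counts stand beside the 7.10% of all genes called. Of 5 endothelial markers 2 rose, Kdr (change 3.04) and Tek (1.06), named like the other markers below after their values were seen, while Pecam1, Cdh5 and Cldn5 were below the array median on all 6 arrays, with changes of 0.07, -0.01 and 0.09. The log2 of the summed endothelial signal was 10.26 to 10.75 in N1ICD arrays, against 8.72 to 8.89 in control arrays. Of 7 macrophage markers 6 were below the median on every array and 1 of these, Lyz2, rose. The call of Lyz2 was lost without any 1 of the 6 arrays (limma adjusted p 0.0519 to 0.11). The macrophage sums were 8.29 to 8.41 in N1ICD arrays, against 8.33 to 8.41 in control arrays. Of 6 fibroblast markers 1, Pdgfra, fell, averaging 8.24 in N1ICD cells and 8.97 in control cells. That call was lost when N1ICD replicate 1 or 2 or control replicate 2 or 3 was left out (limma adjusted p up to 0.0736). The fibroblast sums were 8.90 to 9.02 in N1ICD arrays, against 9.36 to 9.62 in control arrays. Of the 6, 4 were below the median on every array, and only Pdgfra was above it on every array. Of 5 alveolar and airway markers Scgb1a1 rose and Sftpc fell. Scgb1a1 averaged 4.55 in N1ICD cells and 3.32 in control cells and was below the array median on all 6 arrays. Without variance moderation Tek and Sftpc lost their calls (adjusted p = 0.0648 and 0.0742). The alveolar and airway markers had sums of 8.22 to 8.43 in N1ICD arrays, against 8.95 to 9.33 in control arrays. Of these 5 markers 3 were below the median on every array, and Sftpc averaged 6.93 in N1ICD cells and 8.65 in control cells. The part of these markers in the changes of the HES and HEY genes was not tested.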

How the data were processed

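The 6 KP1 samples were each hybridized to 1 Affymetrix Mouse Gene 2.0 ST array. The deposited values are log2 expression made by the authors with RMA, a method that corrects background, equalizes the arrays' distributions and sums up the probes of a set, per the submitters' processing notes, where RMA stands with no version. Base 2 was taken, as RMA uses it; the highest value is 14.09. No coordinates of probe sets are given, since the sources used here name no build for the array.

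The platform annotation gives 1 symbol for 23521 of 41345 probe sets, several for 1814 and none for 16010; the brightest single-symbol probe set stood for each of 22180 genes. N1ICD was compared with control in limma 3.58.1 under R 4.3.3 (lmFit and eBayes, two-sided, Benjamini-Hochberg adjustment over all genes, threshold 0.05), with no filter on dim genes and no replicate block. A ± after a change is the SE of the fit, and the number of arrays limits every precision. Where the changes of neighboring members are compared, it is the SE from their within-array differences, without variance moderation. On simulated data with 22180 genes, the fit made 138 calls, 7 of them false. The settings of that simulation are not given here, so it does not measure the share of false calls in these data. Named were all members, Notch1, the 3 closest profiles of each called member, and called genes of the lists or, where none was called, the largest change; other names are marked as chosen later. Members and lists were chosen with earlier results of these data known. Figures used matplotlib 3.10.9.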

Additional observations from a re-analysis of the deposited data

How the results depend on the processing

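All 6 calls of the family, 5 rises and 1 fall, held under each of 18 alternatives: quantile normalization once more, equal array medians, cyclic loess, 2 filters on dim genes, the mean over probe sets, the probe set brightest in the control arrays (added after the data were seen), all probe sets, an intensity trend with robust eBayes, array weights, no moderation, the replicate block, and leaving out each array. Across them the change was 3.37 to 3.54 for Hes1, 4.31 to 4.48 for Hey1, 2.13 to 2.26 for Hey2, 1.84 to 1.96 for Heyl and -1.60 to -1.36 for Hes6, and 0.72 (probe set chosen on control arrays, adjusted p = 0.0488) or 2.91 (mean over probe sets) to 5.22 for Hes5. Hes2, Hes3 and Hes7 passed under none of 17; the stricter filter, which kept 11280 genes, removed them. It kept Hey2 and Heyl only through their N1ICD arrays, and Hes1 and Hes5 had 1 control array above the array median, so their calls under it are no support. The dimmer Hes5 probe set, tested in 13 ways chosen after its value was seen, stayed above 0.05 in the fit over all probe sets (adjusted p 0.0986 to 0.358, change 0.55 to 0.87), and the dimmer Hes7 probe set ran from -0.20 to 0.08 with 1 array left out, turning to 0.083 without control replicate 2 and to 0.01 without N1ICD replicate 3.

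Over all genes, 1574 were called, 848 higher and 726 lower. With all probe sets 805 were called, 548 higher and 257 lower, and without moderation 598, 402 and 196. The stricter filter gave 968 higher and 1324 lower, and an intensity trend 1049 and 1227. Equal array medians turned the balance to 730 higher and 948 lower, and cyclic loess gave 920 and 626. With 1 array left out, 823 to 1230 were called, 548 to 709 higher and 275 to 585 lower. Without moderation 0 of the known repression targets fell, and with all probe sets or without moderation 0 genes of the RBPJ complex and 0 corepressors fell. With 1 array left out, 0 to 1 of the RBPJ complex, 0 to 1 corepressors and 0 to 1 other Notch targets fell, and the cause was not tested.

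The labels do not say whether samples with the same number share a batch. Deviations of same-numbered samples from the group means correlated at 0.23, 0.01 and 0.20 for replicates 1, 2 and 3. Samples with different numbers correlated at -0.23 to 0.06, and N1ICD replicate 2 did not correlate best with its own number. The deviations of each gene cancel out within a group, so these correlations are not independent of each other. A positive value for some pairs forces negative values for others. A shared batch was not tested. With the replicate block 1518 genes were called, 814 higher and 704 lower, and every member kept its side of the threshold, while the marker Ncam1 lost its call (adjusted p = 0.0553).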

Other observations

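The nearest protein-coding neighbors of the 6 called members were taken from the order of genes in the RefSeq table. Of 12 neighbors 10 were measured, with changes between -0.57 and 0.32; 0 rose and 1 fell in limma (at an unadjusted p under 0.05, 1 rose and 3 fell), a count near the 7.10% of all genes called. Opa1 and Cpn2, which flank Hes1, changed by -0.22 and 0.00 and did not pass. Ncoa7 and Hddc2 beside Hey2 changed by -0.10 and -0.08, and Stmn2 beside Hey1 by 0.23. The neighbor that fell was Pank4, beside Hes5, at 7.56 in N1ICD cells and 8.14 in control cells on average (adjusted p = 0.0261). Its call was lost with any 1 array left out except N1ICD replicate 3 (adjusted p up to 0.092). Tnfrsf14, on the other side of Hes5, changed by 0.32 (adjusted p = 0.124). These genes were chosen after the members' values were seen.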
